A study of Mus musculus with 6 samples.

Results

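The enzymes of the tricarboxylic acid (TCA) cycle and pyruvate carboxylase, which feeds the cycle, were examined in the epididymal fat of mice fed a normal diet (ND) or a high-fat diet (HFD). The set held 9 genes, Cs, Idh3a, Idh3g, Ogdh, Sucla2, Suclg1, Fh1, Mdh2 and Pcx, chosen by symbol for their place in the cycle. They were 9 of 54532 genes listed and of 15751 genes with enough counts to be tested. The choice was made with earlier results of these data known. RNA-Seq was run on 3 untreated samples per diet, numbered 1 to 3 in each group. Per the study's methods, the mice were male C57BL/6J fed ND (4.5% fat) or HFD (60% fat) from 4 weeks of age for 16 weeks, and the HFD-fed mice were 20 weeks old. Epididymal fat is a visceral depot that holds adipocytes, immune cells, vessels and fibroblasts, so each value is an average over a mixed tissue. Whether each sample came from 1 mouse or from a pool was not stated, so p-values measure the spread between these samples only.

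The TCA cycle is a mitochondrial pathway that oxidises acetyl-CoA to carbon dioxide and passes the electrons to the respiratory chain. Carbon that leaves the cycle must be put back, and pyruvate carboxylase does this by adding carbon dioxide to pyruvate to form oxaloacetate. In white adipocytes the oxaloacetate made this way supports the export of citrate for fatty acid synthesis and the making of glycerol for triglycerides, and the enzyme is abundant there.

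Counts per library totalled 16996896 to 18859320, and a gene with 3 counts corresponded to 0.15 to 0.18 CPM (counts scaled to library size), a limit that covers counting error only. The summed level of 15 adipocyte markers was 47663 to 61466 CPM on ND against 22067 to 44453 CPM on HFD. A large part of this fall was Cfd, with a mean of 13608 CPM on ND and 1273 CPM on HFD. By edgeR's test 2 of 15 genes, Cfd and Retn, were lower (0 to 6 genes when a library was left out), against 6.04% of all genes tested. Of the 15 genes, 3 had a positive log2 fold change. The mean log2 CPM of the same markers overlapped between the diets. The summed level of 15 macrophage markers was 2197 to 2338 CPM on ND against 5495 to 12534 CPM on HFD. Of these, 13 of 15 were higher (5 to 15 when a library was left out), against 9.85% of all genes tested. The summed level of 10 epithelial markers was 252.0 CPM in ND sample 3 and 9.95 to 14 CPM in the other libraries.  In bulk tissue, fewer cells of a type and less RNA per cell cannot be told apart.

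Promoter sequence was available from RefSeq (GRCm38.p6) for 8 of the 9 genes, all but Idh3a, as 250 bases before to 50 bases after each transcript start. The upstream 250 bases are shown for Pcx, which had the largest fold change of the 9, and for Idh3g and Ogdh, of which the former passed the test on HFD and the latter did not. All are written 5′ to 3′ on the strand of the gene, and capitals mark motif matches. Pcx had a window at each of 2 starts, at chr19:4510222-4510471 and chr19:4594069-4594318, both on the plus strand. The Idh3g window was chrX:73786898-73787147 on the minus strand, and the Ogdh window shown, 1 of 6, was chr11:6291347-6291596 on the plus strand.
Pcx, start 1: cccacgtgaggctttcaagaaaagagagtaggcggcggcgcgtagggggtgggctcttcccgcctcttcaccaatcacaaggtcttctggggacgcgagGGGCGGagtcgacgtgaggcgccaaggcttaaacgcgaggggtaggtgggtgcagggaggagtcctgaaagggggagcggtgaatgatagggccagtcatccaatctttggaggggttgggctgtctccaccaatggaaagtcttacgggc
Pcx, start 2: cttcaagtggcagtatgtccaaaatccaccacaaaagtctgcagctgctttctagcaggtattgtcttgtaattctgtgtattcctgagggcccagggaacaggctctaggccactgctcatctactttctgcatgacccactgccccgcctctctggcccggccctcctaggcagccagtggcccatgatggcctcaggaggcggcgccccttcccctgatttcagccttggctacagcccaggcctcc
Idh3g: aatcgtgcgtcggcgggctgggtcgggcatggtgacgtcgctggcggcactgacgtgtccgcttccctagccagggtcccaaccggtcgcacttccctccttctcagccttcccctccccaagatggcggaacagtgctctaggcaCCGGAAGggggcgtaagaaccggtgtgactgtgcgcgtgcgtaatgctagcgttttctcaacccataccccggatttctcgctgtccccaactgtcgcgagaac
Ogdh: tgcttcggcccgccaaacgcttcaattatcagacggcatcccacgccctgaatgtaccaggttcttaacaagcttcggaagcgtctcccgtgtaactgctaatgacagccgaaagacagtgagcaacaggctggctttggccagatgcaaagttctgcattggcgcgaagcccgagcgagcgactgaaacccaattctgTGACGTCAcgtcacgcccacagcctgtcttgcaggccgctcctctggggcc

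Short motifs of factors known for mitochondrial genes were searched on both strands of the full windows by exact match. The Pcx capitals mark a GC box (GGGCGG), a motif bound by SP1, and a further match spans the start itself. The GC box lay in 6 of the 8 genes with a window and, counted in the same way, in 38.2% of the 27025 genes with a window (35.7% of the 32851 windows). The Idh3g capitals mark a GABPA motif (CCGGAAG), found in 9.93% of genes (8.86% of windows) and in no other member. The Ogdh capitals mark a CREB motif (TGACGTCA), which lay in Ogdh and Mdh2 and in 2.03% of genes (1.79% of windows). Ogdh had more windows to match than the other members. The estrogen-related receptor motif (AAGGTCA, 5.38% of genes and 4.72% of windows) and the NRF1 motif (GCGCATGC, 3.05% of genes and 2.71% of windows) were matched in Ogdh alone, in windows of other starts. A PPAR direct repeat, with AGGTCA copies separated by 1 base, was in 0.0481% of genes (0.0396% of windows) and in no member. The GC box is short and common, and these matches describe letters in the windows only.

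Pyruvate carboxylase (Pcx), citrate synthase (Cs), fumarase (Fh1) and the subunits Idh3g and Suclg1 were lower in fat on HFD, with Pcx 3.12-fold and the other 4 genes 1.45- to 1.82-fold lower. Mdh2 had a log2 fold change of -0.49 and missed the threshold. Idh3a, Ogdh and Sucla2 overlapped between the diets. By edgeR's quasi-likelihood test, with p-values adjusted over all genes tested, 5 of 9 genes were lower at an adjusted p under 0.05. None was higher by edgeR or DESeq2, also at an unadjusted p under 0.05. Over all genes tested, 6.04% were lower and 9.85% were higher by edgeR, and 9.16% were lower and 11.6% were higher by DESeq2. The CPM values of 6 of the 9 were lower in every HFD library than in every ND library, which held for 19.1% of all genes. The median log2 fold change was -0.54 for the 9 genes and 0.01 for all genes tested. The number of lower genes depended on single libraries. Without ND sample 1, ND sample 2 or HFD sample 1 it was 0, without ND sample 3 it was 2 (Cs and Idh3g), without HFD sample 3 it was 2 (Idh3g and Fh1), and without HFD sample 2 it was 5. Over all genes, the share called lower without ND sample 1, ND sample 2 or HFD sample 1 was 0.956%, 1.32% and 0.58%. The share was 2.46% without ND sample 3, 4.56% without HFD sample 3 and 9.65% without HFD sample 2. At an unadjusted p under 0.05, 6 of the 9 genes were lower in each fit that left out a library. No share over all genes at this unadjusted threshold is given, here or for the lists below.

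**Figure D1:**
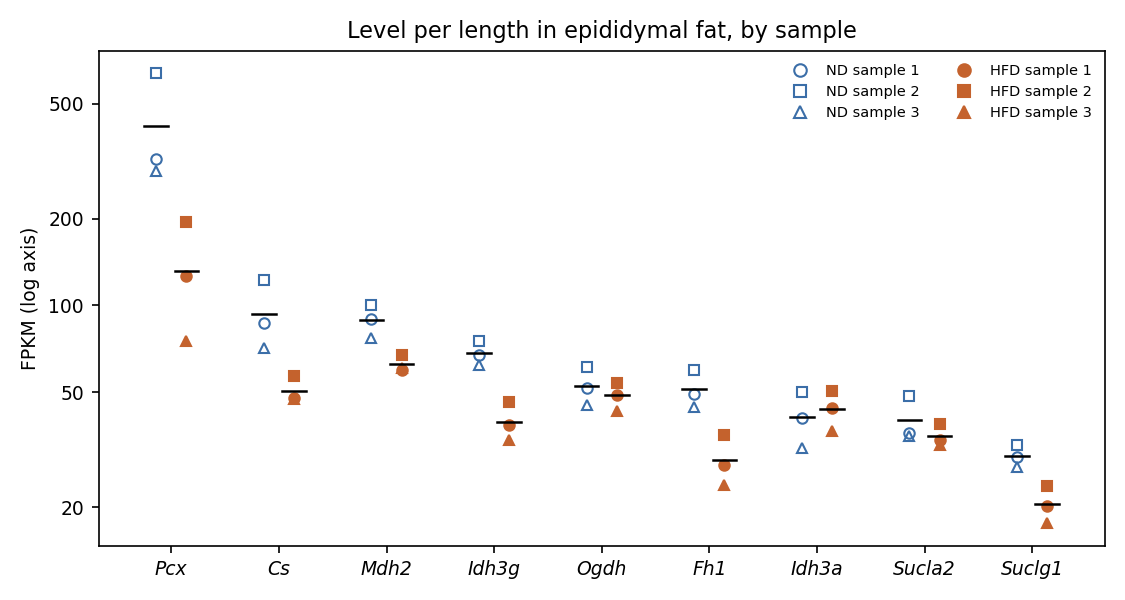
FPKM (log axis) of each of the 9 genes in each library, with open blue symbols for ND, filled orange symbols for HFD, a shape for each sample number and a line at the mean of each diet. Pcx stands above the others in both diets, and the HFD points lie below the ND points for Pcx, Cs, Idh3g, Suclg1, Fh1 and Mdh2.

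Pcx (ENSMUSG00000024892, chromosome 19, 4510472 to 4621752, plus strand, GRCm38) encodes pyruvate carboxylase. It was measured at 1465, 2892 and 1344 CPM in the ND samples and at 581, 897 and 347 CPM in the HFD samples. All HFD values were below all ND values, although ND sample 2 stood well above the other ND samples. The mean fell from 1900.1 ± 860.8 to 608 ± 276.0 CPM (SD, n = 3 per diet), a 3.12-fold difference. The log2 fold change was -1.64 ± 0.44 (SE), with a 95% interval of -2.67 to -0.62 (adjusted p = 0.0455, edgeR). Without ND sample 2 the log2 fold change was -1.21 and the adjusted p was no longer under 0.05. The same loss of the call was seen without ND sample 1 (-1.80), ND sample 3 (-1.87), HFD sample 1 (-1.64) or HFD sample 3 (-1.38).

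Cs (ENSMUSG00000005683, chromosome 10, 128337734 to 128362479, plus strand) encodes citrate synthase, which joins acetyl-CoA to oxaloacetate at the entry of the cycle. Its level was 490, 690.0 and 409 CPM on ND against 274, 326 and 273 CPM on HFD, with no overlap. The HFD samples lay closer together than the ND samples, with SDs of 30.4 and 144.5 CPM. The log2 fold change was -0.86 ± 0.22 (SE; 95% interval -1.38 to -0.34; adjusted p = 0.0399, edgeR), which was called in 2 of the 6 fits that left out a library.

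Isocitrate dehydrogenase (NAD+) is built from a catalytic alpha subunit and from beta and gamma subunits that carry regulation. Idh3a encodes the alpha subunit (ENSMUSG00000032279, chromosome 9, 54586334 to 54604661, plus strand) and Idh3g the gamma subunit (ENSMUSG00000002010, chromosome X, 73778963 to 73786897, minus strand). Idh3g was 178, 199.0 and 167 CPM on ND against 103, 124 and 91.9 CPM on HFD, so all HFD values were below all ND values. Its log2 fold change was -0.77 ± 0.15 (SE; 95% interval -1.13 to -0.42; adjusted p = 0.0185, edgeR), the lowest adjusted p of the 9 genes, and it was called in 3 of the 6 fits that left out a library. Idh3a was 202, 249 and 161 CPM on ND against 222, 256 and 185 CPM on HFD, and these ranges overlapped. Its log2 fold change was 0.11 ± 0.20 (SE), with an interval of -0.36 to 0.58 that held values of either sign (adjusted p = 0.725, edgeR).

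Ogdh (ENSMUSG00000020456, chromosome 11, 6291633 to 6356642, plus strand) encodes the E1 subunit of the 2-oxoglutarate dehydrogenase complex, which turns 2-oxoglutarate into succinyl-CoA. It was measured at 277, 326 and 246 CPM on ND against 266, 292 and 235 CPM on HFD. The diets overlapped, and the log2 fold change was -0.10 ± 0.16 (SE; 95% interval -0.48 to 0.29; adjusted p = 0.715, edgeR).

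Succinyl-CoA ligase releases coenzyme A while making a nucleoside triphosphate. Suclg1 (ENSMUSG00000052738, chromosome 6, 73248382 to 73276911, plus strand) encodes its alpha subunit, and Sucla2 (ENSMUSG00000022110, chromosome 14, 73525319 to 73596142, plus strand) encodes the beta subunit of the ATP-forming enzyme. Suclg1 was 135, 149 and 127 CPM on ND against 92.7, 109 and 81.2 CPM on HFD, with no overlap. It fell by 0.54 on the log2 scale (SE 0.14; 95% interval -0.88 to -0.20; adjusted p = 0.0451, edgeR) and kept its call in 1 of 6 fits that left out a library. Sucla2 was 141, 189 and 140.5 CPM on ND against 135, 153 and 131 CPM on HFD, and the ranges overlapped. Its log2 fold change was -0.17 ± 0.16 (SE; 95% interval -0.54 to 0.21; adjusted p = 0.496, edgeR).

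Fh1 (ENSMUSG00000026526, chromosome 1, 175600374 to 175625635, minus strand) encodes fumarase, which hydrates fumarate to malate. It was 164, 198.5 and 149.9 CPM on ND against 94.7, 119 and 80.7 CPM on HFD. The diets did not overlap, and the log2 fold change was -0.80 ± 0.18 (SE; 95% interval -1.23 to -0.37; adjusted p = 0.029, edgeR), a call kept in 2 of the 6 fits that left out a library. Mdh2 (ENSMUSG00000019179, chromosome 5, 135778480 to 135790398, plus strand) encodes the mitochondrial malate dehydrogenase, which returns malate to oxaloacetate. It was 314, 350.2 and 272 CPM on ND against 212, 238 and 215 CPM on HFD, without overlap. The log2 fold change of -0.49 ± 0.15 (SE; 95% interval -0.84 to -0.14) did not pass the threshold by edgeR (adjusted p = 0.0623), and did with DESeq2 (adjusted p = 0.012).

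Levels can be compared between genes per length, as fragments per unit of gene length and of sequencing depth (FPKM). On ND, Pcx led with 417 ± 191 FPKM (SD, n = 3), above Cs at 93.3 ± 26.0 and Mdh2 at 89.0 ± 11.9, and Suclg1 was lowest at 30.1 ± 2.67 FPKM. The ranges of Cs and Mdh2 overlapped, as did those of Ogdh and Fh1, Fh1 and Idh3a, and Idh3a and Sucla2. Idh3g (68.3 ± 6.55 FPKM) stood apart from both neighbours in the ND order. On HFD, Pcx still led with 132.0 ± 60.1 FPKM, followed by Mdh2 at 62.6 ± 4.07 and Cs at 50.7 ± 5.36, and Suclg1 was again lowest at 20.5 ± 3.04. Cs, Ogdh, Idh3a, Idh3g, Sucla2 and Fh1 then formed a run in which each neighbour's range overlapped the next. Idh3g thus ranked above Ogdh on ND and below Idh3a on HFD, where its range overlapped that of Idh3a. Without Pcx, mean levels spanned 30.1 to 93.3 FPKM on ND and 20.5 to 62.6 FPKM on HFD.

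The 9 genes shared much of the order of the libraries within each diet. ND sample 2 was the highest ND library for all 9 and HFD sample 2 the highest HFD library for all 9. ND sample 3 was the lowest ND library for 9 of 9 and HFD sample 3 the lowest HFD library for 8 of 9. The adipocyte marker sum was also highest in ND sample 2 and HFD sample 2 and lowest in ND sample 3 and HFD sample 3 within each diet, and the macrophage sum was highest in HFD sample 3 and lowest in HFD sample 2 among HFD libraries. The part of these markers in the differences above was not tested.

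Each gene was set against an adipocyte index, the mean log2 CPM of the 15 adipocyte markers, which was 10.76, 10.86 and 10.57 on ND and 10.02, 10.59 and 9.23 on HFD. The index differed by -0.78 (exact two-sided permutation test p = 0.2; 3 against 3 cannot go below 0.1). Pcx minus the index was -0.24, 0.64 and -0.18 on ND and -0.83, -0.78 and -0.79 on HFD on the log2 scale. This ratio differed by -0.88 between the diets (exact permutation p = 0.1), and each HFD sample lay below each ND sample. A lower and non-overlapping ratio to this index was found in 2.47% of all genes tested. The ratios of Cs, Idh3g and Fh1 differed by -0.05, 0.00 and -0.02 between the diets, and those of Suclg1, Mdh2 and Sucla2 by 0.24, 0.30 and 0.63, all with overlap. When single libraries were left out, the difference of Pcx lay between -1.03 and -0.59. Idh3a and Ogdh were higher relative to the index, by 0.91 and 0.69, without overlap (exact permutation p = 0.1 for each). The median of this difference over all genes tested was 0.79, and 40.8% of genes were higher without overlap. The differences of the other 8 genes were all lower without HFD sample 3, the library with the lowest index, at -0.37 for Cs, -0.26 for Idh3g, -0.25 for Fh1, -0.02 for Suclg1, -0.04 for Mdh2, 0.32 for Sucla2, 0.67 for Idh3a and 0.42 for Ogdh.

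Each gene was also set against a mitochondrial index, the mean log2 CPM of 24 genes, mostly for import, folding, proteolysis and shape of mitochondria. Vdac1, Vdac2, Vdac3 and Letm1 were also in this list. Its largest positive log2 fold change was that of Vdac2 (0.45, adjusted p = 0.207, edgeR). The index was 6.83, 7.08 and 6.72 on ND and 6.62, 6.70 and 6.69 on HFD. The index differed by -0.20 (exact two-sided permutation p = 0.1). By edgeR 1 of its 24 genes, Clpp, was lower, against 6.04% of all genes, and nothing is read from this count. Relative to this index 6 of the 9 genes were lower on HFD without overlap, against 9.52% of all genes tested. The differences on the log2 scale were -1.46 for Pcx, -0.63 for Cs, -0.60 for Fh1, -0.58 for Idh3g, -0.34 for Suclg1 and -0.28 for Mdh2 (exact permutation p = 0.1 for each). The ratios of Idh3a, Ogdh and Sucla2 differed by 0.33, 0.11 and 0.05 with overlap. When single libraries were left out, these 6 ratios kept a negative difference, between -1.77 and -1.09 for Pcx and between -0.32 and -0.25 for Mdh2.

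**Figure D2:**
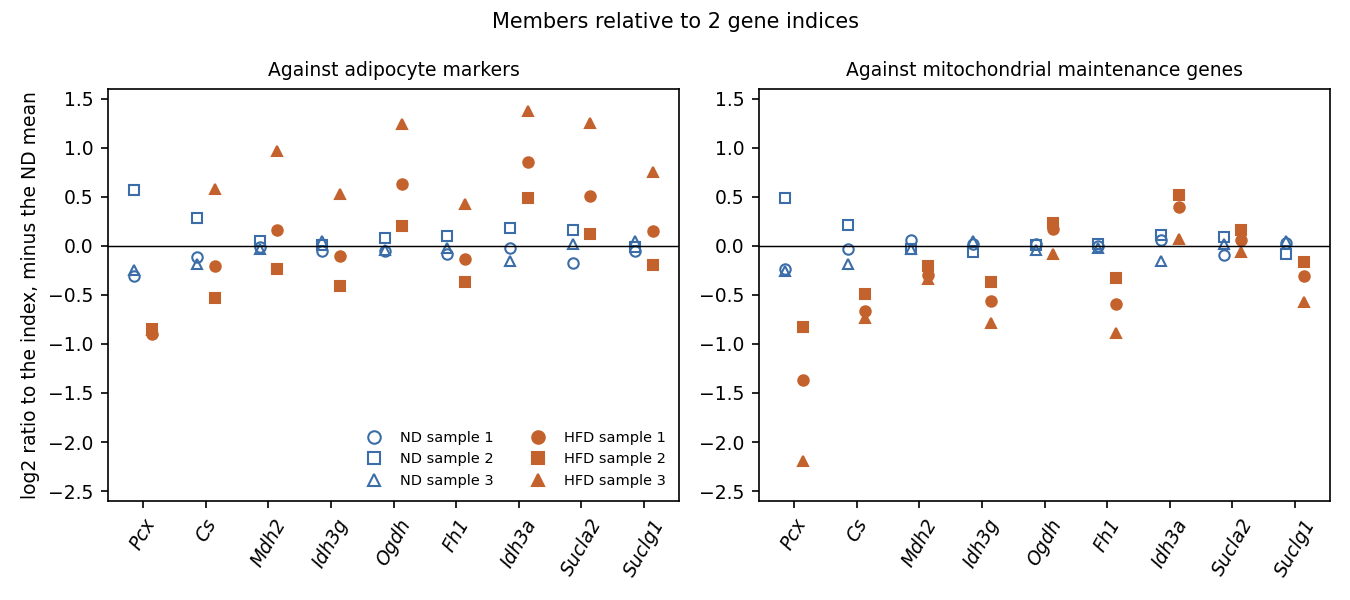
Log2 ratio of each of the 9 genes to the adipocyte index (left) and to the mitochondrial index (right) in each library, shown as the difference from the ND mean, with open symbols for ND and filled symbols for HFD. All HFD points of Pcx lie below its ND points in both panels, those of 6 genes do so on the right, and those of Idh3a and Ogdh lie above ND on the left.

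Ratios of FPKM within an enzyme describe its subunit RNAs, and 1 is not a statement on stoichiometry because the levels depend on the lengths used. Idh3a to Idh3g was 0.605, 0.666 and 0.513 on ND and 1.15, 1.10 and 1.07 on HFD. The diets did not overlap, and the ratio was 1.87-fold higher on HFD (exact two-sided permutation p = 0.1, the smallest possible). Idh3a to Idh3b, the beta subunit, was 0.57, 0.569 and 0.493 on ND and 1.13, 1.13 and 0.89 on HFD, 1.93-fold higher and again without overlap. Idh3g to Idh3b was 0.919 ± 0.0569 on ND and 0.948 ± 0.105 on HFD with overlap (SD, n = 3 per diet; exact permutation p = 0.7). That ratio was added after the values of the other ratios had been seen.

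Sucla2 to Suclg2, the beta subunits of the ATP- and GTP-forming ligases, was 1.76, 2.12 and 2.05 on ND and 3.85, 3.33 and 5.01 on HFD. It was 2.03-fold higher without overlap (exact permutation p = 0.1). Sucla2 made up 63.7, 68.0 and 67.2% of the summed beta subunit FPKM on ND and 79.4, 76.9 and 83.4% on HFD. Suclg2 was lower on HFD (log2 fold change -1.15, adjusted p = 0.0172, edgeR), while Sucla2 was not called. Suclg1 to the sum of both beta subunits was 0.504 ± 0.0369 on ND and 0.463 ± 0.0134 on HFD, with overlap (SD, n = 3 per diet; exact permutation p = 0.3).

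Ogdh to Dlst, the E2 subunit of the same complex, was 2.38, 2.44 and 2.55 on ND and 3.26, 3.35 and 2.88 on HFD, 1.29-fold higher without overlap. Mdh2 to Mdh1, the cytosolic malate dehydrogenase, was 0.367, 0.334 and 0.349 on ND and 0.413, 0.372 and 0.476 on HFD, 1.2-fold higher without overlap. Pcx to Cs was 3.72, 5.22 and 4.09 on ND and 2.64, 3.42 and 1.58 on HFD, which did not overlap, with a log2 difference of -0.83. Each of these 3 had an exact permutation p of 0.1. Pcx to Pck1, whose enzyme turns oxaloacetate into phosphoenolpyruvate, was 1.35, 1.30 and 0.94 on ND and 0.457, 0.408 and 1.08 on HFD. Those ranges overlapped (exact permutation p = 0.2). HFD sample 3 was the library in which Pck1 was at 236 CPM against 941 and 1624 CPM in the other HFD libraries.

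**Figure D3:**
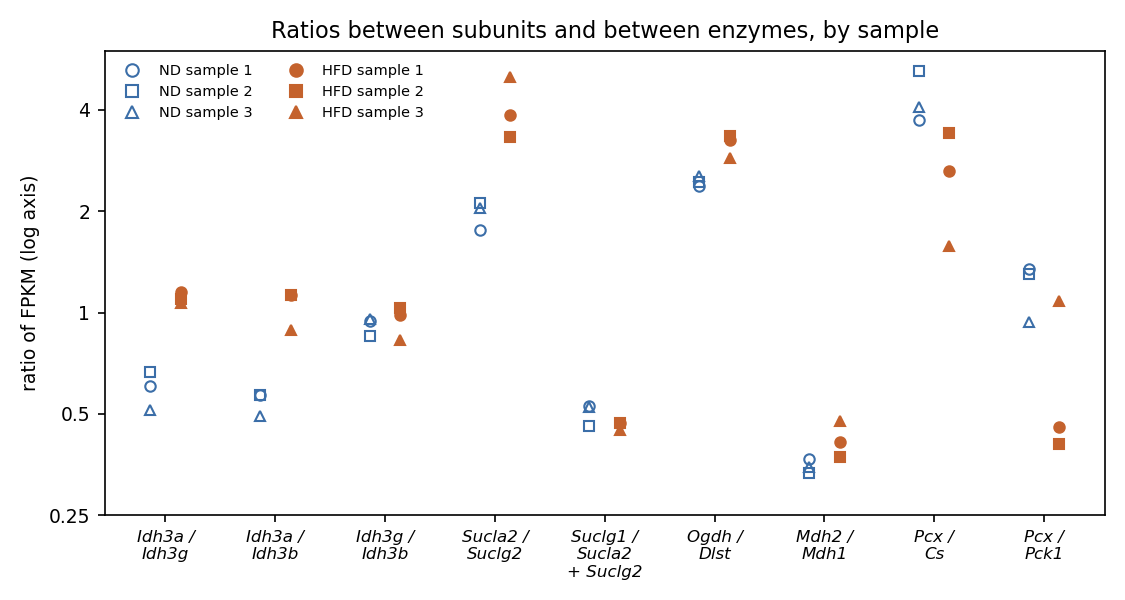
Ratio of FPKM (log axis) for each pair of subunits or enzymes in each library, with open symbols for ND and filled symbols for HFD. Idh3a to Idh3g and Sucla2 to Suclg2 are higher in all HFD libraries, and Pcx to Cs is lower in all of them.

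Over the whole cycle of 17 genes, 8 were lower on HFD, Cs, Idh3b, Idh3g, Suclg1, Suclg2, Sdha, Sdhb and Fh1, and 16 had a negative log2 fold change. None was higher by edgeR or DESeq2, also at an unadjusted p under 0.05, and DESeq2 called 13 lower. These 8 and 13 genes stand beside shares over all genes of 6.04% by edgeR and 9.16% by DESeq2. The median log2 fold change was -0.58. The CPM values of 13 of the 17 were lower in every HFD library than in every ND library, which held for 19.1% of all genes. The lower genes lay at 5 of the 8 steps. They were 1 of 1 at citrate synthase and at fumarase, 2 of 3 at isocitrate dehydrogenase and at succinyl-CoA ligase, and 2 of 4 at succinate dehydrogenase, the membrane enzyme that also serves as complex II. No gene was called at the 2-oxoglutarate dehydrogenase complex or at malate dehydrogenase by edgeR, although 3 of the 4 genes there had an unadjusted p under 0.05, all but Ogdh. Sdha, the flavoprotein subunit, fell by 0.81 on the log2 scale (adjusted p = 0.0446, edgeR) and Sdhb, the iron-sulfur subunit, by 0.71 (adjusted p = 0.0203, edgeR). Sdhd, a membrane anchor, had -0.53 (adjusted p = 0.0523, edgeR) and Sdhc, the other anchor, -0.31 (adjusted p = 0.192, edgeR). Dld, the E3 subunit shared between dehydrogenase complexes, was at -0.61 (adjusted p = 0.0634, edgeR). Idh3b was lower (-0.83, adjusted p = 0.0156, edgeR), and its exons overlap those of Nop56 on the opposite strand. The library kit named in the labels does not mark strand, so reads in this overlap cannot be told apart. The exons of no member overlap another gene. Without HFD sample 1, ND sample 1 or ND sample 2 no gene of the 17 was called, without HFD sample 3 there were 5, without ND sample 3 there were 6, and without HFD sample 2 there were 10. In the fits with no call, 0.58% to 1.32% of all genes were lower. This share was 4.56% without HFD sample 3, 2.46% without ND sample 3 and 9.65% without HFD sample 2. At an unadjusted p under 0.05 the fits that left out a library held 11 to 14 lower genes of the 17.

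**Figure D4:**
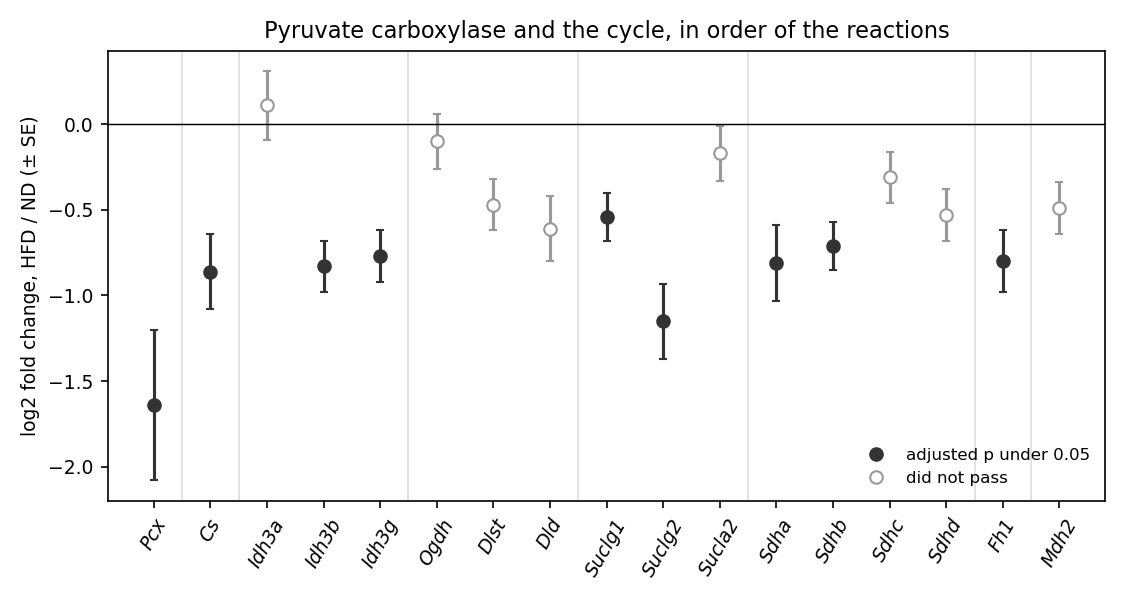
Log2 fold change of HFD over ND for Pcx and 16 genes of the cycle in the order of the reactions, with bars of 1 SE and grey lines between steps; filled points passed the test and open points did not. Pcx is farthest below 0 at -1.64, and of the genes shown Idh3a alone lies above 0, at 0.11.

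Among 24 tested genes that carry carbon into or out of the cycle, 7 were lower and 3 were higher on HFD. Over all genes these shares were 6.04% and 9.85%. The count of 3 higher genes is near that share, and nothing is read from it about the list. The median log2 fold change was -0.46. Besides Pcx, the lower genes included Gpt2 (-1.40, adjusted p = 0.0165, edgeR), whose enzyme can make 2-oxoglutarate and alanine from glutamate and pyruvate. Mdh1 (-0.74, adjusted p = 0.0464) and the cytosolic aconitase Aco1 (-0.91, adjusted p = 0.0231; both edgeR) were lower too. The others were the mitochondrial pyruvate carrier subunits Mpc1 (-1.14, adjusted p = 0.0374) and Mpc2 (2.01-fold lower, adjusted p = 0.0335), and the citrate carrier Slc25a1 (-1.77, adjusted p = 0.0188; all edgeR). Slc25a1 was 507, 1034.5 and 430 CPM on ND against 172, 220 and 185 CPM on HFD. The higher genes included Got1, cytosolic aspartate aminotransferase (1.44, adjusted p = 0.0305, edgeR), and Slc25a13, an aspartate-glutamate carrier (3.02, adjusted p = 0.0343, edgeR). Acly, which cleaves exported citrate, and Me1, which makes NADPH from malate, were lower in every HFD sample but not called (-2.48, adjusted p = 0.0723 and -1.78, adjusted p = 0.0614, edgeR). ND sample 2 was at 3121 and 2036 CPM for these genes, against 388 to 504 and 493 to 623 CPM in the other ND samples. Without ND sample 1 or HFD sample 1 no gene of this list was called lower (9 at an unadjusted p under 0.05 in each), without ND sample 2 there was 1, and without ND sample 3 or HFD sample 3 there were 3. Over all genes, 0.956%, 0.58%, 1.32%, 2.46% and 4.56% were lower in these fits, in the order named. The 3 higher genes were called in none of the fits without ND sample 1, ND sample 2 or HFD sample 1, where all 3 kept an unadjusted p under 0.05.

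Pcx carries biotin, and 6 of 9 genes of biotin-dependent enzymes and of biotin handling were lower, against 6.04% of all genes, with a median log2 fold change of -1.33. This count was 0 without HFD sample 1, with 6 at an unadjusted p under 0.05, 1 without any single ND sample, 5 without HFD sample 3 and 8 without HFD sample 2. Over all genes, 0.58% were lower without HFD sample 1 and 0.956% to 2.46% without an ND sample. The share was 4.56% without HFD sample 3 and 9.65% without HFD sample 2. Acaca (-3.24, adjusted p = 0.0146, edgeR) and Acacb (-1.79, adjusted p = 0.0251, edgeR), the acetyl-CoA carboxylases, were lower, as were Pccb (-1.31, adjusted p = 0.0301, edgeR), Mccc1 (-1.44, adjusted p = 0.0271, edgeR) and Mccc2 (-1.33, adjusted p = 0.0282, edgeR) of propionyl-CoA and methylcrotonyl-CoA breakdown. Hlcs, which attaches biotin to these enzymes, was at 0.15 on the log2 scale (95% interval -0.15 to 0.44; adjusted p = 0.453, edgeR). Of 7 genes for lipoylation and assembly of succinate dehydrogenase, 1 was lower, Lias (-0.56, adjusted p = 0.0411, edgeR), which makes lipoate and was called only without HFD sample 2 among the fits that left out a library. Of 17 tested regulators of mitochondrial genes, 2 were lower, the coactivator Ppargc1a (-2.17, adjusted p = 0.0114, edgeR) and the mitochondrial DNA factor Tfam (-0.51, adjusted p = 0.0249, edgeR), and Pprc1 had the largest positive value (0.62, adjusted p = 0.0949, edgeR). Ppargc1a kept its call in 4 and Tfam in 2 of the 6 fits that left out a library, with neither called without ND sample 2 or HFD sample 1. Counts of 1 of 7 and 2 of 17 are each less than 1 gene above what 6.04% of these lists would be, and nothing is read from them about the lists.

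The 5 protein-coding genes closest to the mean profile of the 9 genes over the 6 libraries were Dld, Ndufab1, Derl1, Ndufs3 and Pex5. The root mean square distance of their centred log2 CPM from that profile was 0.0282 to 0.0453. Of the 9 genes themselves, Suclg1 was closest at 0.0867 and Pcx was farthest at 0.633. The profile was 0.22, 0.58 and 0.07 on ND and -0.31, -0.05 and -0.51 on HFD. None of the 5 genes was itself called, with adjusted p of 0.0575 to 0.102 (edgeR).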

How the data were processed

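The authors deposited raw counts per gene and, for the same genes and libraries, FPKM values, both by Ensembl identifier. The sources differ on how these were made. The study's methods name GRCm38 with TopHat and Cufflinks, while the submitters' processing notes list CASAVA 1.8, fastp, HISAT2 2.0.5, featureCounts 1.5.0-p3, DESeq2 1.20.0 and the build names GRCh38 and hg38, although the identifiers are those of mouse. Gene names and coordinates were taken from the GENCODE M21 annotation of GRCm38, which held 54495 of the 54532 identifiers.

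Diet and sample number came from the labels. The main test was edgeR 4.0.16 (R 4.3.3), glmQLFit with robust=TRUE on TMM-scaled counts after filterByExpr, with Benjamini-Hochberg adjustment over 15751 genes and a threshold of 0.05. CPM used TMM-scaled totals. The standard error came from the F statistic, and 95% intervals from the moderated degrees of freedom. Ratios were tested by exact two-sided permutation of 6 libraries (20 arrangements). Promoter windows came from RefSeq. Genes named were the 9 members, genes of the TCA cycle and carbon-supply lists needed for their step, the extremes and called genes of other lists, and the 5 nearest profiles, so called genes of other lists were partly chosen after their values were seen. The members and lists were chosen with earlier results of these data known. Alternatives were DESeq2 1.42.0, limma 3.58.1 (voom and log2 FPKM), other scalings and filters, a replicate block and leaving out each library. Some results are not reported here, although the list counts include them. Over all genes tested, same-numbered libraries did not deviate together from their diet means (r of -0.0858, -0.0556 and -0.00532). For the 9 members the order by number was shared. Sample 2 was the highest library for all 9 in both diets, and sample 3 the lowest for 9 on ND and 8 on HFD.
The edgeR, DESeq2, limma-voom and replicate block fits were run on simulated counts with known changes, and the outcome is not given here. The permutation tests, the log2 FPKM fits and the motif search were not part of that simulation. Between libraries of the same diet, the chi-square per gene was 21.7 to 170, so no library was a repeat of another.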

Additional observations from a re-analysis of the deposited data

How the results depend on the processing

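The 5 called members kept a negative log2 fold change in all alternatives run, while Idh3a ranged from -0.06 to 0.28 and Ogdh from -0.22 to 0.02 when a library was left out. The number of members lower on HFD was 5, and was 6 with DESeq2 and with library size only (Mdh2 added), 5 with limma-voom, 5 with DESeq2 size factors, 5 with log2(FPKM + 1), 3 without a filter on low counts, 2 with log2(FPKM + 0.1) and 0 with log2(FPKM + 1) without a filter, where 18 genes were lower in all. Leaving out 1 library gave 0 to 5, with 0.58% to 9.65% of all genes lower in those fits. For the cycle list the count was 8, and was 13 with DESeq2, 12 with library size only, 5 with log2(FPKM + 0.1), 0 with log2(FPKM + 1) without a filter and 0 to 10 when a library was left out. For the carbon-supply list it was 7, and was 4 without a filter on low counts, 3 with log2(FPKM + 0.1), 0 with log2(FPKM + 1) without a filter and 0 to 7 when a library was left out. More genes were tested without the filters; the cause of the other differences was not tested. With the replicate block the counts were 5, 9 and 8, and over all genes 1886 were called against 2503, with 1693 in both. The labels do not say whether a shared number means more than a number, so the block was not used in the main test. With the block, the adjusted p (edgeR) was 0.018 for Pcx, 0.0221 for Fh1, 0.0387 for Cs and 0.0439 for Suclg1, each lower than in the main test. It was higher than in the main test for Idh3g (0.0238) and Mdh2 (0.0806). With the median of the mitochondrial list in place of its mean, the difference was -0.07 for Sucla2 (0.05 with the mean) and -0.40 for Mdh2 (-0.28). With 3 libraries per diet, the intervals of Idh3a, Ogdh and Sucla2 leave room for differences of up to 0.58 on the log2 scale.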
